A study of Homo sapiens with 12 samples.

Results

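The 10 genes described here encode SR splicing factors: *SRSF1*, *SRSF2*, *SRSF3*, *SRSF4*, *SRSF5*, *SRSF6*, *SRSF7*, *SRSF10*, *SRSF11* and *TRA2A*. They were chosen by gene symbol, as SR proteins that are known or likely substrates of the kinase activity linked to topoisomerase 1 (TOP1) or their close relatives, and all 10 were found among the 26364 gene symbols counted. RNA-seq was performed on total RNA of HCT116 cells, a human colon cancer cell line, in 12 libraries. HCT116 WT cells and clone 32, a p65-deficient single-cell clone of the same line, were each left without inhibitor or incubated for 2 h with 5 µM of the TOP1 inhibitor CPT (camptothecin) or of the TOP2 inhibitor ICRF193, and each of these was left without TNFα (0 h) or received 20 ng/mL TNFα for 1 h. The paper's methods name both untreated and vehicle-treated cells, and the sample titles do not say whether the libraries without inhibitor received vehicle. If they did not, effects of vehicle and inhibitor cannot be told apart. The labels give 2 h of inhibitor at both TNFα times, whereas the paper describes 2 h of inhibitor before TNFα was added. In libraries with an inhibitor, 1 h of TNFα and a longer time in inhibitor thus cannot be told apart. Each of the 12 conditions has 1 library, so that matched pairs of libraries stand in for replicates. The deposited labels of the clone 32 libraries read shRNA p65, whereas the paper's methods describe a CRISPR-Cas9 clone. As 1 clone was sequenced, the lack of p65 and other properties of the clone cannot be told apart.

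SR proteins bind exonic sequences of pre-mRNA through RNA recognition motifs and recruit the spliceosome through a domain rich in arginine and serine, the RS domain. SRPK and CLK kinases phosphorylate this domain, which governs whether the proteins are stored in nuclear speckles or released to sites of transcription. TOP1 is known as a further kinase of SR proteins besides its role in relaxing DNA supercoils, and CPT traps TOP1 on DNA. Many SR genes also carry poison exons, whose inclusion sends the mRNA to nonsense-mediated decay. Counts per gene, as used here, show neither phosphorylation nor the inclusion of single exons.

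Between 16300210 and 22051046 reads were counted in the 6 WT libraries and between 8101212 and 20524958 in the 6 clone 32 libraries, of which 4 had fewer than 10000000: ICRF193 at 0 h TNFα and all 3 at 1 h. The 10 genes together took 0.294% to 0.331% of the counted reads. *RELA*, which encodes p65, had 694 to 909 normalized counts in WT and 548 to 673 in clone 32, where a normalized count is the number of reads divided by the DESeq2 size factor of the library. The epithelial genes *EPCAM*, *KRT8*, *KRT18*, *KRT19* and *CDH1* had at least 780 reads in every library, while *VIL1* had 0 to 4 reads and *CDX1* none. Of 8 markers of blood cells, fibroblasts and endothelium, *PTPRC*, *CD3E*, *COL1A2*, *COL3A1*, *PECAM1* and *CDH5* had at most 4 reads per library. The other two were counted, *CD68* with 149 to 451 and *COL1A1* with 57 to 227 reads, and the log2 ratio of CPT to no inhibitor in the 4 pairs was 0.25 to 0.49 for *CD68* and 0.39 to 1.20 for *COL1A1*. Their part in the values below was not tested.

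The promoters of the 2 genes that passed the test with CPT are shown here so that their sequences can be read beside the values. RefSeq windows of 300 bases, from 250 bases before to 50 bases after the transcript start (GRCh38.p14), matched 8 of the 10 genes, and *SRSF2* and *TRA2A* were not matched. Capitals mark, on either strand, the letters GGGCGG (known as the GC box), then TATAAA (the TATA box), then CCGGAA (the core that ETS factors recognize) and also TGACG (the core of the cAMP response element, CRE). No match overlapped another in these 2 windows. *SRSF4* lies on the minus strand with the window chr1:29181851-29182150, and *SRSF7* on the minus strand with the second of its 2 windows, chr2:38751312-38751611.
SRSF4: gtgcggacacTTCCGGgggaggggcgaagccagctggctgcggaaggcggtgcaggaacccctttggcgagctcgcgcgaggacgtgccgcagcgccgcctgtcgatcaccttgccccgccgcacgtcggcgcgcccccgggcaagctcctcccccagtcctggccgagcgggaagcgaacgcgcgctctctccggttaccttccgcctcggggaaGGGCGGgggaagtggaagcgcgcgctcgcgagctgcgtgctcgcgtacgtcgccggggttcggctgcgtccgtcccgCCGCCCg
SRSF7: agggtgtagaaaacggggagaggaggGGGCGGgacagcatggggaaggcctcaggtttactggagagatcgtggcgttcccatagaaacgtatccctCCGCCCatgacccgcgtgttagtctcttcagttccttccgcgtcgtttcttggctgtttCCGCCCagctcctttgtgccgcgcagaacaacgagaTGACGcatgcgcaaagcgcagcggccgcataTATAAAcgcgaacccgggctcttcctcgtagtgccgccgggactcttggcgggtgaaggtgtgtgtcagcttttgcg
The *SRSF4* window held 2 GC boxes and 1 ETS core, with a GC content of 74.7% and 48 CpG dinucleotides, more than 98.0% of all promoter windows. The *SRSF7* window held 3 GC boxes, 1 TATAAA and 1 CRE core, with 59.3% GC and 28 CpG dinucleotides. It was chosen after the matches were seen, as the window with more of the searched motifs; the other *SRSF7* window, chr2:38751445-38751744, also held 3 GC boxes but no TATA box, ETS core or CRE core, with 55% GC and 17 CpG dinucleotides. Among the 8 matched genes, which had 10 windows, GGGCGG was found in at least 1 window of 4 genes, TATAAA of 3, CCGGAA of 2 and TGACG of 5. Of 35116 promoter windows, 45.0% held GGGCGG, 11.5% TATAAA, 17.2% CCGGAA and 24.6% TGACG. These shares are per window and the counts above per gene, which favours genes with more than 1 window. These matches describe letters in a window and say nothing about binding.

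Levels were compared between genes as normalized counts per kb of exon. All annotated exons enter this length, which need not be that of the expressed transcripts, and the order depends on it. By median normalized count alone, *SRSF1* (11388) was above *SRSF2* (7579). Likewise, *SRSF10* (2523) was above *SRSF11* (2097), *SRSF4* (1537) and *TRA2A* (1359). Per kb, *SRSF2* was highest with a median of 2558 over the 12 libraries (range 2367 to 2778). *SRSF1*, the gene of the first SR protein described, followed with 2018 (1627 to 2140), and the ranges of these genes did not overlap. *SRSF7* (median 1843), *SRSF6* (1602), *SRSF5* (1541) and *SRSF3* (1496) came next, each with a range that overlapped that of its neighbour. Below a gap, *SRSF11* had 751 per kb (653 to 825), *TRA2A* 608 (533 to 688) and *SRSF4* 608 (451 to 703), with overlapping ranges. *SRSF10*, whose dephosphorylated protein represses splicing, was lowest with 307 per kb (278 to 337), taking the exons on chromosome 1 alone. The gene is also listed on an unlocalized contig of chromosome 1. The counting set no option for reads that align to more than 1 place. The level and rank of *SRSF10* may thus be too low, which was not tested. Of the SR genes outside the 10, *SRSF9* had a median of 1617 per kb, *TRA2B* of 974 and *SRSF8* of 177, while *SRSF12* had 0 to 17 reads in a library.

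**Figure D1:**
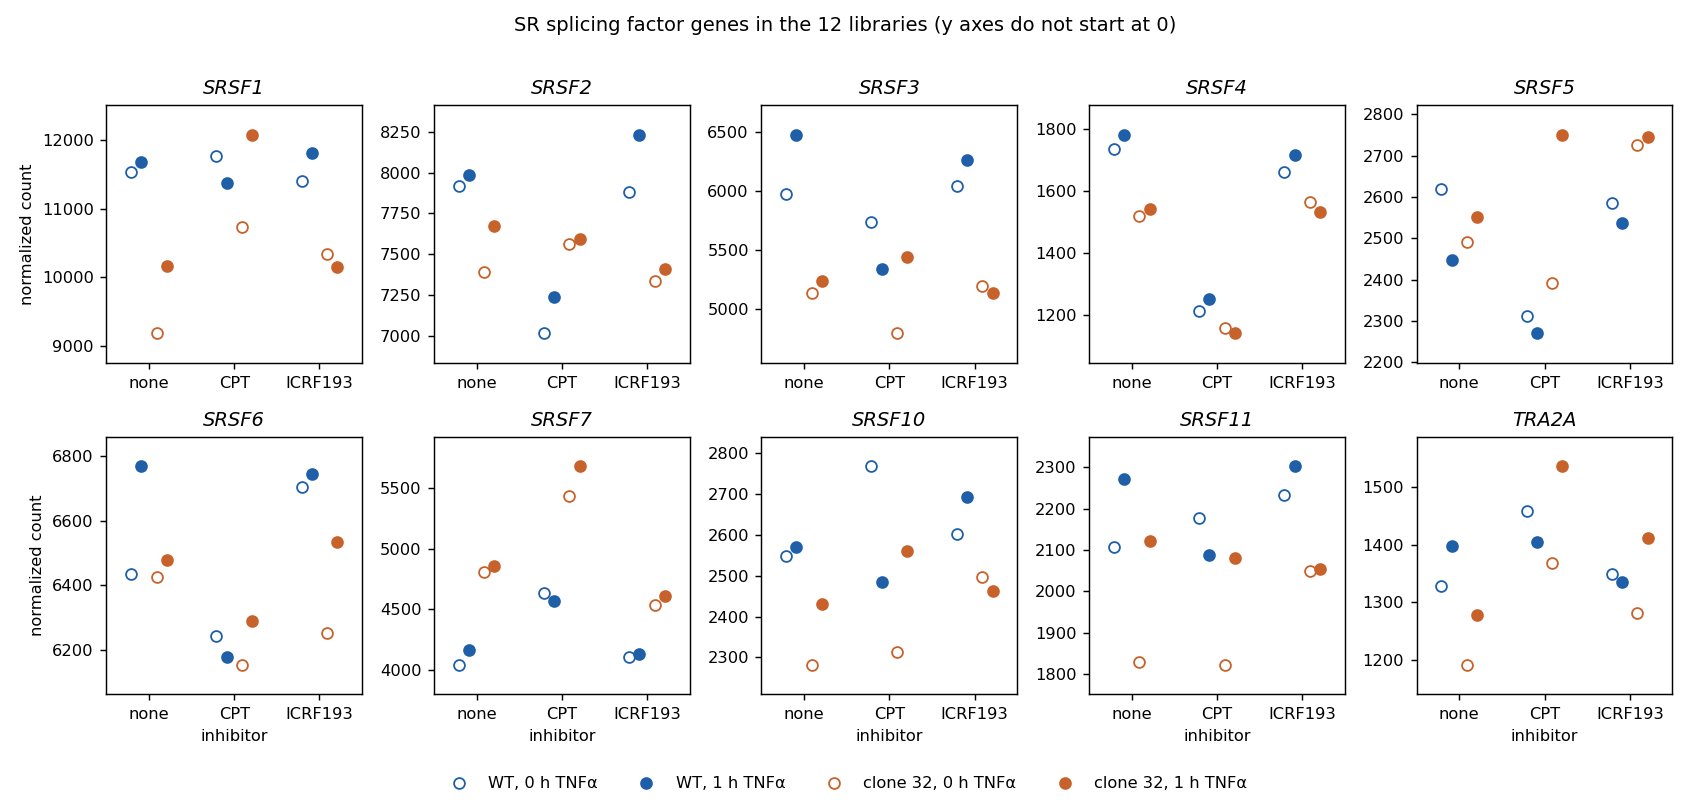
Normalized counts (y axis, a separate scale for each gene that does not start at 0) of the 10 SR splicing factor genes by inhibitor (x axis) in the 12 libraries; blue points are WT, orange points clone 32, open points 0 h and filled points 1 h TNFα. The 4 *SRSF4* points with CPT lie between 1142 and 1251, below all 8 others, and the clone 32 points of *SRSF7* lie above the WT points of the same inhibitor and TNFα time.

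The first comparison asked how inhibition of TOP1 by CPT changed the mRNA of these genes. CPT lowered *SRSF4* and raised *SRSF7*, and the other 8 genes did not pass the test. That is 2 of 10 genes, beside 47.9% of all 14573 genes tested (23.1% raised and 24.8% lowered). The test was edgeR's quasi-likelihood test over 4 matched pairs with Benjamini-Hochberg adjustment over all genes tested and a threshold of 0.05, as in all comparisons that follow. The median log2 fold change of the 10 genes was -0.06 and that of all genes 0.02.

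*SRSF4* (chromosome 1, 29474250 to 29508637, minus strand, hg19; 6 exon blocks) encodes the SR protein with the longest RS domain. Without inhibitor it had 1734 and 1779 normalized counts in WT (0 and 1 h TNFα) and 1519 and 1543 in clone 32. With CPT it had 1215 and 1251 in WT and 1160 and 1142 in clone 32, so that every CPT library was below every library without inhibitor. With ICRF193 it had 1659 and 1714 in WT and 1564 and 1532 in clone 32, all within the range without inhibitor. Of all genes tested, 19.7% had every CPT library below every library without inhibitor and 17.7% had every one above. The log2 ratio of CPT to no inhibitor was -0.51 (95% counting interval -0.61 to -0.42) and -0.51 (-0.60 to -0.42) in WT at 0 and 1 h, and -0.39 (-0.48 to -0.29) and -0.43 (-0.58 to -0.29) in clone 32. Over the pairs, *SRSF4* fell by 28.0%, a log2 fold change of -0.47 (SE 0.05, edgeR adjusted p = 1.1e-05). It was the one member called in each of 12 alternative analyses.

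*SRSF7* (chromosome 2, 38970741 to 38978636, minus strand; 8 exon blocks) encodes an SR protein with a zinc knuckle that also serves as an adaptor in mRNA export. In WT it rose from 4039 normalized counts without inhibitor to 4637 with CPT at 0 h, and from 4160 to 4565 at 1 h TNFα. In clone 32 it went from 4810 to 5439 at 0 h and from 4860 to 5680 at 1 h. Each CPT library was above its partner, and all 4 counting intervals lay above 0, but the 2 arms overlapped because the clone 32 libraries without inhibitor were above the WT libraries with CPT. The log2 ratios were 0.20 and 0.13 in WT and 0.18 and 0.22 in clone 32. Over the pairs, *SRSF7* was 1.13-fold higher with CPT, a log2 fold change of 0.17 (SE 0.04, edgeR adjusted p = 0.0036). With the WT pairs alone the log2 fold change was 0.15 (edgeR adjusted p = 0.066), and without the pair as a block it was 0.18 (adjusted p = 0.14), so that the call was lost in both.

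**Figure D2:**
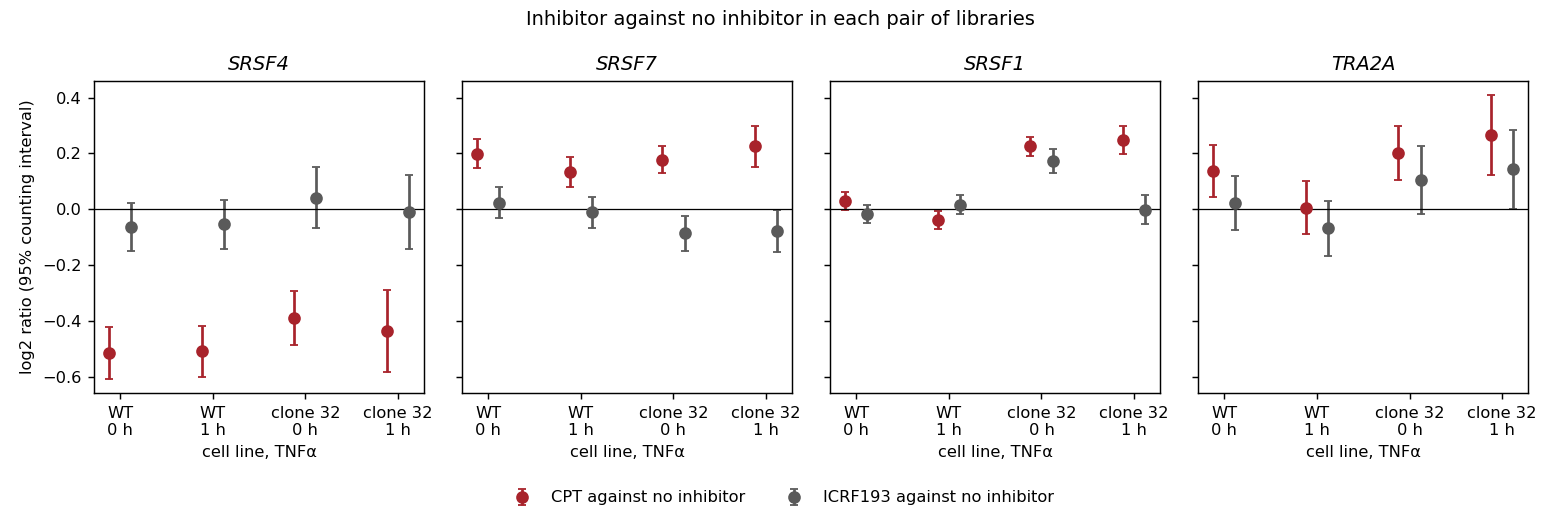
Log2 ratio of CPT (red) or ICRF193 (grey) to no inhibitor (y axis) in each of the 4 pairs of libraries (x axis: cell line and hours of TNFα) for *SRSF4*, *SRSF7*, *SRSF1* and *TRA2A*; bars are 95% counting intervals. All 4 CPT ratios lie below 0 for *SRSF4* and above 0 for *SRSF7*, while the *SRSF1* ratios with CPT are near 0 in WT and at 0.23 and 0.25 in clone 32.

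Of the members that did not pass, *TRA2A* came nearest. It is a homologue of the Drosophila sex determination factor transformer-2 (chromosome 7, 23544401 to 23571660, minus strand). Its log2 ratio was 0.14 and 0.01 in WT and 0.20 and 0.27 in clone 32, above 0 in 4 of 4 pairs, with a log2 fold change of 0.14 (SE 0.05, edgeR adjusted p = 0.053). It was called in 4 of 12 alternatives, among them total-count scaling (0.15, adjusted p = 0.034) and the fit without the WT pair at 1 h (0.18, adjusted p = 0.037). *SRSF6*, the gene of a further classical SR protein (chromosome 20, 42086504 to 42092244), had 6427 to 6769 normalized counts without inhibitor and 6153 to 6290 with CPT. As for *SRSF4* and 19.7% of all genes, every CPT library was below every library without inhibitor, and all 4 ratios were below 0 (-0.13 to -0.04), but the log2 fold change of -0.08 did not pass (SE 0.04, edgeR adjusted p = 0.11).

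*SRSF1* (chromosome 17, 56078280 to 56084707) and *SRSF2* (chromosome 17, 74730197 to 74733493) had CPT ratios of a different size in each cell line, a difference tested further on. *SRSF1* had 11533, 11683, 11776 and 11375 normalized counts in WT without inhibitor and with CPT (0 and 1 h each), with no separation of the arms. In clone 32 it had 9182 and 10160 without inhibitor and 10734 and 12077 with CPT. Its log2 fold change was 0.10 (SE 0.05, edgeR adjusted p = 0.13) over all pairs and 0.22 (adjusted p = 0.00077) over the clone 32 pairs alone. *SRSF2* had 7921 and 7985 normalized counts in WT without inhibitor against 7015 and 7235 with CPT, and 7391 and 7676 against 7564 and 7594 in clone 32. Its log2 fold change was -0.09 (SE 0.05, edgeR adjusted p = 0.14) over all pairs and -0.18 (adjusted p = 0.013) over the WT pairs alone.

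*SRSF3*, the gene of the smallest SR protein and an mRNA export adaptor (chromosome 6, 36562090 to 36572244), had CPT log2 ratios of -0.06 and -0.28 in WT and -0.10 and 0.05 in clone 32. The log2 fold change was -0.11 (SE 0.05, edgeR adjusted p = 0.095) over all pairs and -0.19 (adjusted p = 0.011) over the WT pairs, and with no low-count filter it passed at -0.13 (adjusted p = 0.048). *SRSF5* (chromosome 14, 70233829 to 70238722) had ratios of -0.18 and -0.11 in WT and -0.06 and 0.11 in clone 32, with a log2 fold change of -0.08 (SE 0.05, adjusted p = 0.23). *SRSF10* (chromosome 1, 24290837 to 24306953) and *SRSF11* (chromosome 1, 70671365 to 70717701), the latter a protein that interacts with the 3' splice site factor U2AF, had log2 fold changes of 0.03 (SE 0.05) and -0.04 (SE 0.05). Neither had the same direction in all pairs.

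Whether the CPT effect differed between the cell lines was tested as an interaction. None of the 10 genes passed, beside 4.78% of all genes, and 1 of the 10 had an unadjusted p below 0.05. That was *SRSF1*, with a CPT effect in clone 32 minus WT of 0.22 on the log2 scale (SE 0.07, edgeR adjusted p = 0.10). The difference was 0.15 for *SRSF2* (SE 0.07, adjusted p = 0.28), 0.12 for *SRSF3* (SE 0.08, adjusted p = 0.45) and 0.14 for *TRA2A* (SE 0.09, adjusted p = 0.45). For *SRSF4* it was 0.08 (SE 0.09) and for *SRSF7* 0.01 (SE 0.07). The calls within 1 cell line given above for *SRSF1*, *SRSF2* and *SRSF3* are thus not shown to differ from those in the other line. Whether the CPT effect differed between 0 and 1 h TNFα, which may also differ in time in inhibitor, was tested likewise. No member passed, none had an unadjusted p below 0.05, and 0.00686% of all genes passed. DESeq2 called no member in either test.

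ICRF193 was compared with no inhibitor to show the effect of TOP2 inhibition in the same cells. No SR gene passed the test, beside 2.16% of 14101 genes. The log2 fold changes lay between -0.03 (*SRSF7*, SE 0.03) and 0.06 (*SRSF5* and *SRSF10*, SE 0.03 each), and *SRSF5* and *SRSF10* were the 2 with an unadjusted p below 0.05 in edgeR (adjusted p = 0.44 for both). With DESeq2, too, no member passed. The ratios in single pairs lay between -0.09 and 0.17, and the highest was *SRSF1* in clone 32 at 0 h. This comparison and that of CPT share the 4 libraries without inhibitor.

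**Figure D3:**
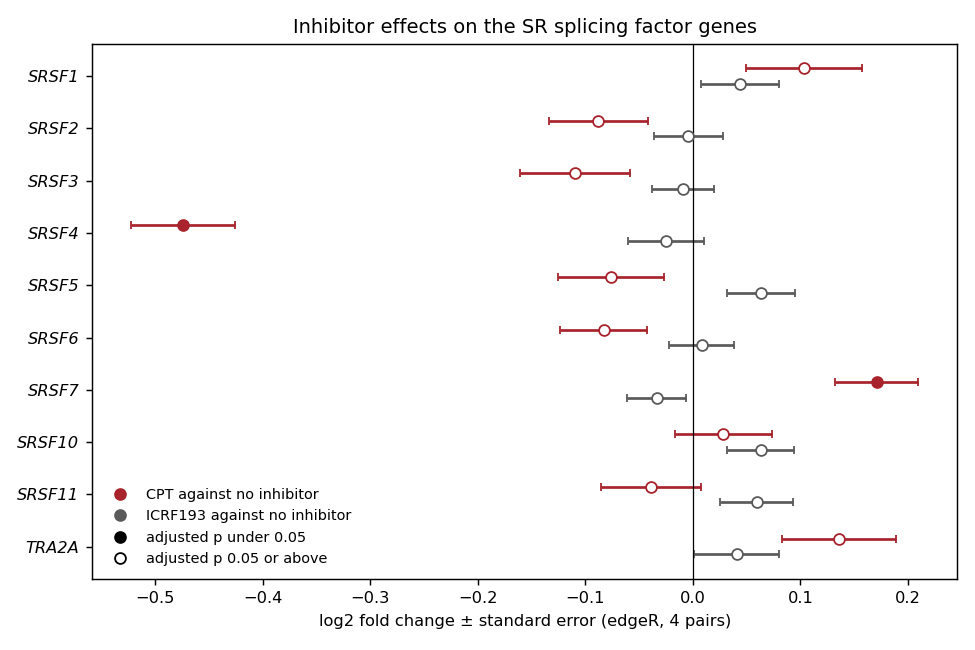
Log2 fold change (x axis) with its standard error for each SR gene (y axis) with CPT (red) and ICRF193 (grey) against no inhibitor, from edgeR over 4 pairs; filled points have an adjusted p under 0.05. *SRSF4* at -0.47 and *SRSF7* at 0.17 are the filled points, and all 10 ICRF193 values lie between -0.03 and 0.06.

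CPT was also compared directly with ICRF193, which tests the difference between the inhibitors. The test called 3 of 10 genes, beside 46.1% of 14526 genes (21.0% raised and 25.1% lowered). *SRSF4* with CPT was at 0.725-fold of its level with ICRF193, a log2 fold change of -0.46 (SE 0.05, edgeR adjusted p = 6.8e-06), and *SRSF7* was 1.15-fold higher (log2 0.20, SE 0.05, adjusted p = 0.0059). *SRSF5* was lower with CPT than with ICRF193 (-0.15, SE 0.05, adjusted p = 0.027), a call kept in 5 of 12 alternatives. The *SRSF7* call was kept in 9 of 12, and was lost without the clone 32 pair at 1 h (0.18, adjusted p = 0.052), with the WT pairs alone (0.14, adjusted p = 0.054) and without the block (0.21, adjusted p = 0.073). *SRSF6* (-0.10), *SRSF11* (-0.11) and *SRSF3* (-0.11) had adjusted p-values of 0.11 to 0.12.

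TNFα for 1 h against 0 h was tested in the 3 WT pairs, since the induction of inflammatory genes was the study's subject. These pairs had no inhibitor, CPT or ICRF193, so that the test averages TNFα responses with and without an inhibitor. The paper reports that CPT inhibited most TNFα-regulated genes in WT cells. In the pairs with an inhibitor, time in inhibitor may differ as well. No SR gene passed, beside 0.640% of 14226 genes, and none had an unadjusted p below 0.05 in edgeR. No member passed with DESeq2 either. Without the CPT pair, 372 of all genes were called in place of 91, and still no member passed. The log2 fold changes lay between -0.05 (*SRSF5*, SE 0.04) and 0.04 (*SRSF4*, SE 0.05). Tested over all 12 libraries, the TNFα response of WT minus that of clone 32 passed for none of the 10, beside 0.237% of 14766 genes. *SRSF5* was the 1 member with an unadjusted value below 0.05 there (-0.14, SE 0.06, edgeR adjusted p = 0.49), and DESeq2 called none.

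Clone 32 was compared with WT over 6 pairs matched on inhibitor and TNFα. The test called 5 of the 10 genes, *SRSF7* raised and *SRSF1*, *SRSF3*, *SRSF4* and *SRSF11* lowered in clone 32, beside 30.2% of 14766 genes (14.2% raised and 16.0% lowered). *SRSF7* was higher in clone 32 in 6 of 6 pairs, with log2 ratios of 0.14 to 0.32 whose counting intervals all lay above 0, and a log2 fold change of 0.23 (SE 0.03, edgeR adjusted p = 2.1e-04). *SRSF3* had 5333 to 6474 normalized counts in WT and 4791 to 5436 in clone 32, with a log2 fold change of -0.20 (SE 0.04, adjusted p = 0.0023). It was lower in clone 32 in 5 of 6 pairs, and the exception was CPT with 1 h TNFα (0.03, interval -0.03 to 0.09). The remaining calls were smaller: -0.15 for *SRSF1* (SE 0.05, adjusted p = 0.024; 5 of 6 pairs), -0.13 for *SRSF4* (SE 0.04, adjusted p = 0.017; 6 of 6) and -0.14 for *SRSF11* (SE 0.04, adjusted p = 0.019; 6 of 6). No member had clone 32 libraries that all lay on 1 side of the WT libraries, which 3.79% (above) and 4.71% (below) of all genes had.

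The calls for *SRSF1*, *SRSF4* and *SRSF11* were lost with total-count scaling and without the pair as a block, which left 2 genes called each time. Leaving out 1 pair ended the *SRSF1* call for 4 of the 6 pairs, the *SRSF4* call for 3 and the *SRSF11* call for 2, with the highest edgeR adjusted p (0.14, 0.082 and 0.090) without the pair that had neither inhibitor nor TNFα. Without the CPT pair at 1 h, *SRSF10* was called too (-0.13, adjusted p = 0.043). *SRSF3* and *SRSF7* kept their calls in 11 of 12 alternatives and lost them when only the 2 pairs with a clone 32 library above 10000000 reads were used (an alternative chosen after the depths were seen). There, *SRSF3* had a log2 fold change of -0.24 (edgeR adjusted p = 0.16) and *SRSF7* of 0.24 (adjusted p = 0.15), and no member was called.

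For 8 of the 10 genes, the pair with CPT and 1 h TNFα had the highest ratio of clone 32 to WT among the 6 pairs. Its median log2 ratio was 0.06, while the medians of the other 5 pairs lay between -0.16 and -0.08. Both libraries of this pair were at an end of other comparisons. Against no inhibitor at 1 h, the clone 32 library had the highest of 4 ratios for 6 of the 10 genes (median 0.06) and the WT library the lowest for 7 of 10 (median -0.12). Against 0 h TNFα with CPT, the clone 32 library had the highest of 6 ratios for 6 of 10 (median 0.16) and the WT library the lowest for 7 of 10 (median -0.04). With 1 library per condition, the parts of these libraries in the ratio cannot be told apart. These counts were not made over all genes, so that they are not shown to be particular to the 10. For the CPT effect in clone 32 minus WT, the median was 0.10 for the 10 genes and -0.02 for all genes. The 6 related lists described below had medians between 0.05 and 0.13. The clone 32 library is also 1 of the 4 with under 10000000 reads, and its share of reads on the 10 genes was the highest (0.331%). The part of depth in this was not tested. *SRSF1* was at 12077 normalized counts in this library, its highest value, *SRSF5* at 2750, *SRSF7* at 5680 and *TRA2A* at 1537, each also its highest of the 12.

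**Figure D4:**
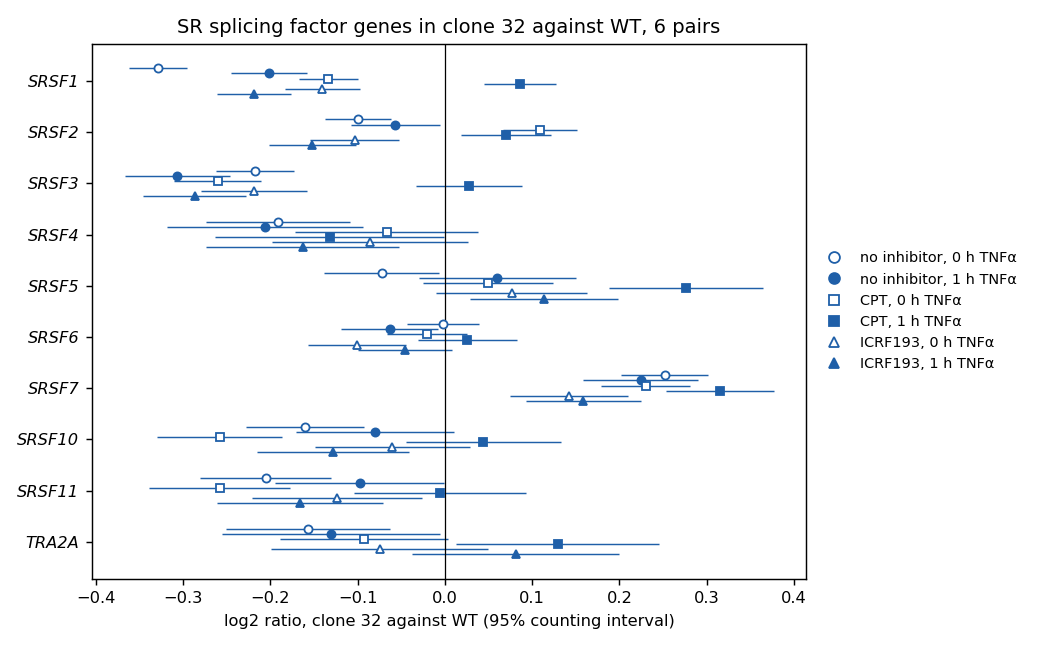
Log2 ratio of clone 32 to WT (x axis) in each of the 6 matched pairs for each SR gene (y axis); circles are no inhibitor, squares CPT and triangles ICRF193, open for 0 h and filled for 1 h TNFα, and bars are 95% counting intervals. *SRSF7* lies above 0 in 6 of 6 pairs, and the filled squares (CPT with 1 h TNFα) are the rightmost points for 8 of the 10 genes.

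The genomic span of the 10 genes, the distance from the first to the last base counted, did not order their CPT effects. The 3 longest were *SRSF11* with 46337 bp, *SRSF4* with 34388 bp and *TRA2A* with 27260 bp, and their log2 fold changes with CPT were -0.04, -0.47 and 0.14. The other 7 spanned 3297 bp (*SRSF2*) to 16117 bp (*SRSF10*), with values between -0.11 (*SRSF3*) and 0.17 (*SRSF7*). Exons of *SRSF2* overlap those of *MFSD11* on the opposite strand over 293 bp and *MIR636* over 15 bp, and exons of *SRSF5* overlap *LOC100289511* on the opposite strand over 269 bp. The counting command set no strand option, so that reads in such overlaps were not separated by strand. Whether they were counted for either gene or left out was not tested. *LOC100289511* had 24 to 91 normalized counts and a CPT log2 fold change of 1.41 (SE 0.15, edgeR adjusted p = 1.4e-05), beside 2270 to 2750 normalized counts of *SRSF5*.

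The SR family genes outside the 10 were raised in 3 of 4 cases with CPT, beside 23.1% of all genes raised and 24.8% lowered. With 4 genes, of which *SRSF12* had few reads, this is not a result about the family. *SRSF8*, an intronless SR gene, rose by a log2 fold change of 0.21 (SE 0.07, edgeR adjusted p = 0.020), from 685 to 790 normalized counts without inhibitor to 818 to 924 with CPT. *SRSF9* rose by 0.15 (SE 0.05, adjusted p = 0.019). Exons of *SRSF9* overlap those of *GATC* on the opposite strand over 495 of their 1163 bp, and the counting set no strand option. The part of this overlap in the level of *SRSF9* and in its CPT value was not tested. *SRSF12* also passed, but it had 0, 0, 2 and 0 reads without inhibitor and 10, 14, 17 and 5 reads with CPT, so no fold is given. *TRA2B*, the close relative of *TRA2A*, had a log2 fold change of 0.00 (SE 0.05, adjusted p = 0.94).

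Among the kinases of SR proteins, their import receptor and their phosphatase, CPT changed 6 of 13 genes (46.2%), 1 raised and 5 lowered, with a median log2 fold change of -0.10. That share is near the 47.9% of all genes called with CPT (23.1% raised and 24.8% lowered) and is not a result about this list. *CLK1*, a kinase that phosphorylates SR proteins in speckles, fell by 1.47 on the log2 scale (SE 0.10, edgeR adjusted p = 4.1e-07), from 882 to 1192 normalized counts without inhibitor to 358 to 424 with CPT. *DYRK1A*, a related kinase, fell by 1.43 (SE 0.06, adjusted p = 5.8e-09) and *CLK4*, a further CLK kinase, fell by 1.01 (SE 0.10, adjusted p = 6.5e-06). *PPP1CA*, a catalytic subunit of protein phosphatase 1, rose by 0.27 (SE 0.04, adjusted p = 4.5e-04). *SRPK1*, which phosphorylates SR proteins in the cytoplasm, had a value of 0.11 (SE 0.05, adjusted p = 0.087) and *TOP1* of 0.09 (SE 0.05, adjusted p = 0.16), with 1766 to 2261 normalized counts in the 12 libraries. With ICRF193, 1 of the 13 passed, *SRPK2* (-0.25, SE 0.05, adjusted p = 9.6e-04), which is named here after its value was seen; with CPT it had -0.28 (SE 0.06, adjusted p = 0.0023).

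Of 22 SR-related and speckle proteins, 10 (45.5%) were lowered by CPT and none was raised, with a median of -0.11. Of all genes, 24.8% were lowered and 23.1% raised, which makes 47.9% called. The split by direction was not tested for any list. *RSRC2*, an arginine- and serine-rich coiled-coil protein, fell by 0.81 (SE 0.05, edgeR adjusted p = 1.6e-07), *LUC7L3*, a relative of a yeast U1 snRNP component, fell by 0.69 (SE 0.04, adjusted p = 2.5e-07) and *RBM39*, a U2AF-related splicing factor, fell by 0.45 (SE 0.05, adjusted p = 1.7e-05). Of 35 core snRNP and spliceosome genes, 15 (42.9%) passed, 12 raised and 3 lowered, with a median of 0.09. The share called in either direction was near the 47.9% of all genes. The Sm protein genes *SNRPE* (0.35, SE 0.09), *SNRPD2* (0.29, SE 0.05) and *SNRPG* (0.26, SE 0.08) rose most, and *PRPF3* (-0.31), *CDC5L* (-0.15) and *DHX15* (-0.13) fell. Of 26 hnRNP genes, which encode RNA-binding proteins that often oppose SR proteins, 10 (38.5%) passed, 7 raised and 3 lowered, with a median of 0.08. *HNRNPC* (0.17), *PCBP2* (0.16) and *HNRNPA2B1* (0.15) rose, and *HNRNPDL* (-0.47), *PTBP2* (-0.42) and *HNRNPF* (-0.22) fell. *HNRNPDL* was the one hnRNP gene that also passed with ICRF193 (-0.15, SE 0.03, edgeR adjusted p = 4.2e-04).

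Nonsense-mediated decay is the pathway that removes SR transcripts with a poison exon. Beside 47.9% of all genes called with CPT (23.1% raised and 24.8% lowered), 13 of 15 genes of this pathway (86.7%) were called. Of these, 3 were raised and 10 lowered, and the pathway had a median of -0.27. Like all lists here, this list was chosen with earlier results of these data known, so its share is a description. Its bearing on the 10 genes was not tested. *SMG9* (-1.01, SE 0.13), *SMG6*, its endonuclease (-0.58, SE 0.08), and *SMG1*, the kinase of UPF1 (-0.52, SE 0.06), fell most, with edgeR adjusted p-values of 6.8e-05, 8.3e-05 and 2.7e-05. The exon junction complex genes *MAGOHB* (0.23), *RBM8A* (0.22) and *MAGOH* (0.20) rose. With ICRF193, none of the 15 passed, and none had an unadjusted p below 0.05 in edgeR. The lists overlap in no gene with the 10 members.

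**Figure D5:**
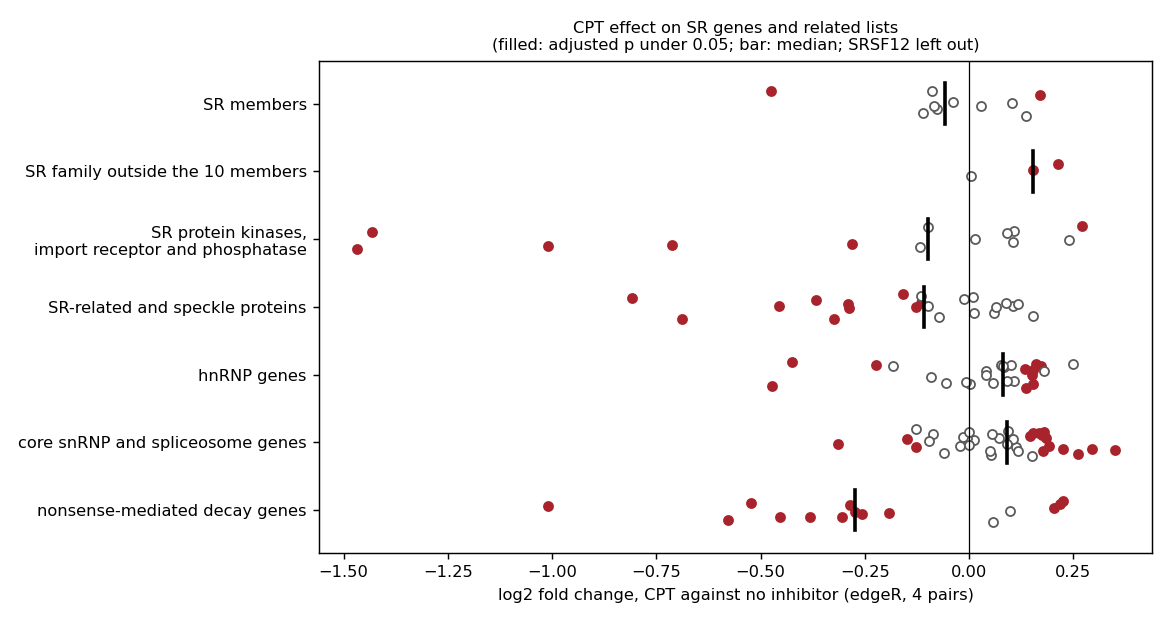
Log2 fold change with CPT against no inhibitor (x axis, edgeR over 4 pairs) of each gene in the 10 SR genes and 6 related lists (y axis); filled red points have an adjusted p under 0.05 and black bars are medians, with *SRSF12* left out for its low counts. The 10 SR genes have a median of -0.06 with 2 filled points, and the nonsense-mediated decay genes a median of -0.27 with 13 of 15 filled.

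The genes most like *SRSF4* over the 12 libraries were sought among the 10124 genes that averaged 100 or more reads, by the root mean square difference of their log2 normalized counts, each centred on its own mean. The 5 nearest were *CPSF7*, a subunit of the mRNA cleavage factor (0.039), *BYSL*, a factor of ribosome assembly (0.040), *CAMSAP2*, a binder of microtubule minus ends (0.044), *RBM39* (0.047) and *RFWD3*, a ubiquitin ligase (0.048). Their CPT log2 fold changes lay between -0.56 (*RFWD3*) and -0.42 (*CPSF7*). The other 9 members were much further from *SRSF4*, from 0.18 for *SRSF3* to 0.36 for *SRSF7*. *SRSF4* was taken as the member with the largest CPT change in these same libraries. Genes near it therefore share a similar CPT change by construction, and members without one lie further away. The 12 libraries share cell line, inhibitor and TNFα groups, so this likeness is a description.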

How the data were processed

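RNA-seq of HCT116 cells was analysed in 12 libraries, 1 per condition. Per the file headers, the labels and the paper, the authors used trimmomatic on the reads, aligned to hg19 (STAR, in the submitters' processing notes) and deposited raw counts per gene symbol, made with featureCounts 1.5.0 without strand or multi-mapping options. The kit marks strand.

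Counts entered edgeR 4.0.16 (R 4.3.3) with TMM, filterByExpr, the matched pair as a block, the quasi-likelihood test and Benjamini-Hochberg adjustment over all genes tested. The 4 pairs of an inhibitor differ in cell line and TNFα, so that p-values measure the spread between unlike pairs, not replicates. Single pairs are given as log2 ratios over DESeq2 1.42.0 size factors without a pseudocount, with Clopper-Pearson 95% intervals (counting error only; depth as given above). Standard errors come from the fold change and the test statistic.

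The 10 genes and all lists were chosen with earlier results of these data known. Named are all 10 members. From each further list, up to 3 raised and 3 lowered genes past the CPT threshold with 1 direction in 4 pairs are named, and every gene of a list with 5 or fewer. *TOP1*, *CLK1*, *SRPK1*, *RELA* and the 5 genes most like *SRSF4* complete the names. Alternatives were DESeq2, its size factors, total-count scaling, no filter, no block, leaving out each pair, 1 cell line, all 12 libraries in 1 fit, TMM and a pseudocount of 1. Tables and intervals were made in Python 3.11.15 (scipy 1.17.1 for the intervals, pandas 2.3.3 and numpy 2.4.6 for tables), and plots with matplotlib 3.10.9.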

Additional observations from a re-analysis of the deposited data

Results flagged for a closer look

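The CPT effect differed between the cell lines, by edgeR's interaction test, for 3 of the genes named. Most genes were named for passing the CPT test, so no share of them is set beside the 4.78% of all genes tested. Over the full lists, it called 1 of 13 kinase list genes, 1 of 22 SR-related, 1 of 26 hnRNP, 2 of 35 core spliceosome and 2 of 15 decay genes. The calls for *CLK1*, *SMG9* and *RELA* were not followed through the alternative analyses and are not a result about the named genes as a set. *CLK1* fell less in clone 32 than in WT: the difference of its log2 fold change was 0.48 (SE 0.12, adjusted p = 0.029), with log2 ratios of -1.64 and -1.73 in the WT pairs and -1.05 and -1.38 in the clone 32 pairs. *SMG9* fell more in clone 32, with a difference of -0.73 (SE 0.13, adjusted p = 0.0036) and log2 ratios of -0.79 and -0.58 in WT and -1.51 and -1.21 in clone 32. Both fell in 4 of 4 pairs. *RELA*, the gene of p65, differed by 0.56 (SE 0.11, adjusted p = 0.0054), with log2 ratios of -0.39 and -0.28 in WT and 0.30 and 0.17 in clone 32, below 0 in both WT pairs and above 0 in both clone 32 pairs. Groups of 4 or more replicates of 1 condition do not exist in these data, so that no library was tested as an outlier.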

How the results depend on the processing

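*SRSF4* with CPT was called in 12 of 12 alternatives (log2 fold change -0.53 to -0.42; adjusted p 1.4e-11 to 2.6e-04) and *SRSF7* in 10 of 12 (0.15 to 0.19; 1.0e-04 to 0.14). Without the pair as a replicate block, 1 member was called for CPT against no inhibitor (*SRSF4*), 1 for CPT against ICRF193 and 2 for clone 32 against WT, in place of 2, 3 and 5. The clone 32 pairs alone gave 4 members for CPT, and the WT pairs alone 5 for CPT against ICRF193. The CPT difference between cell lines called 1 member (*SRSF1*) with no low-count filter, and 0 to 1 when a pair was left out (*SRSF3* without the WT pair at 0 h). Clone 32 against WT called 2 members with total-count scaling, 0 with only the 2 deep pairs, and 2 to 6 when a pair was left out, fewest without ICRF193 at 1 h or no inhibitor at 0 h. Total-count scaling changed the sign of 12 of 200 log2 ratios of single pairs. In 10 of them the 95% counting interval held 0; the other 2 were ratios of clone 32 to WT without inhibitor at 1 h, *SRSF2* at 0.0259 and *SRSF6* at 0.0200, a pair in which this scaling moves every gene by 0.08 on the log2 scale. Other causes were not tested.

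Counts of all genes called moved by over 1.5 times as follows. ICRF193 called 304 genes, against 83 with DESeq2, 3 without the block, 32 with all 12 libraries, 89 with clone 32 alone, and 174 and 166 without the WT pair at 0 and 1 h. The CPT difference between cell lines called 696, against 1096 without the filter, 148 with DESeq2, 343 without the block and 277 to 1697 leaving out a pair. That between TNFα times called 1, against 21 without the filter, 0 without the block and 7 to 63 leaving out a pair. TNFα in WT called 91, against 26 with DESeq2, 0 without the block and 60 to 372 leaving out a pair. Its difference between cell lines called 35, against 132 without the filter, 11 with DESeq2, 0 without the block and 5 to 99 leaving out a pair. Clone 32 against WT called 4460, against 2043 without the block and 521 with the 2 deep pairs; with total-count scaling 2483 were raised and 1829 lowered, against 2094 and 2366. The 4 libraries under 10000000 reads limit the precision of the pairs they enter.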
